A study of Mus musculus with 6 samples.

Results

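The genes described here encode enzymes that modify drugs, hormones, lipids and other small molecules, and they were measured by RNA sequencing in 6 samples of mouse kidney. Members were taken by gene symbol from the deposited table, as cytochrome P450 (CYP) genes, the reductase gene Por, and the UDP-glucuronosyltransferase (UGT), glutathione S-transferase (GST, MGST), sulfotransferase (SULT), flavin monooxygenase (FMO), carboxylesterase (CES), N-acetyltransferase (NAT), epoxide hydrolase (EPHX) and Marc genes. Cyp2e1, Cyp4a10, Cyp4a14 and Cyp4a31 were left out by the rule. That gave 57 of the 7340 genes in the table, including Marc1 and Marc2, whose symbols a spreadsheet had turned into dates and which were restored from their gene identifiers. The mouse annotation has 194 coding genes with such names, and the others were not analysed here.

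All 6 samples were wild-type mouse kidney with ischaemia-reperfusion injury (IRI), in which blood flow is stopped and then restored. In 3 of them IRI was given alone, and in 3 it was combined with MK-8617, a small molecule that blocks prolyl hydroxylases and so keeps hypoxia-inducible factor from being degraded. Strain, age, dose and the time of MK-8617 are not given in the sources used here, and the tag 1d stands in the deposited column names. Every difference is therefore between injured kidneys with and without MK-8617, and no uninjured kidney was analysed here. Nothing says that the samples came from separate animals, so p-values rest on sample-to-sample spread that may be technical.

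Small-molecule metabolism is usually described in steps. CYP, FMO and Marc enzymes oxidise or reduce a molecule, hydrolases such as CES and EPHX split it, and UGT, SULT, GST and NAT enzymes attach a sugar acid, sulfate, glutathione or acetyl group that makes it easier to excrete. In the kidney many of these enzymes are found in the proximal tubule, the segment that ischaemia damages most, where they also handle vitamin D, fatty acids and steroids.

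Counted reads per library ranged from 16835541 to 19508497. Every gene in the table had p below 0.05 in the comparison its authors ran, and 55 of the 57 members passed a filter on low reads and were tested with limma. The added 1 in log2(normalised reads + 1), the scale of all log2 fold changes below, makes the change of low genes look smaller. Sums of FPKM (reads scaled to gene length and library size) here and below cover listed genes only. These were selected for a difference between the same groups, so a gap in such sums is partly built in. They are not totals of a tissue or an enzyme class. The calls below rest on genes selected in the same way. Of 30 proximal tubule markers 11 were listed, 6 rose and 1 fell, against 35.7% higher and 38.7% lower among all tested genes. The summed level of these markers was 426 to 1240 FPKM with IRI alone and 2358 to 2432 FPKM with MK-8617. IRI replicate 3 held the lowest of these sums. In bulk tissue, fewer cells of a type and less RNA per cell cannot be told apart, and the part of proximal tubule content in the results below was not tested. Of 10 hepatocyte markers 5 were listed and 3 of them, Alb, Apob and Ttr, rose, with a sum of 13.5 to 25.4 FPKM with IRI alone and 39.2 to 58.7 FPKM with MK-8617. Arg1, another of the 5, was too low to be tested and was lower with MK-8617 (23.6 ± 13.8 against 3.87 ± 2.25 normalised reads, no overlap). Of 12 injured tubule markers 9 were listed, 1 rose and 5 fell, and their sum was 2649 to 2935 against 1414 to 1458 FPKM. Fibroblast markers fell in 4 of 5 tested genes and rose in 1 (251 to 362 against 60.01 to 96.1 FPKM), macrophage markers fell in 5 of 7 (144 to 250.4 against 89.1 to 123.2 FPKM), and all 5 markers of proliferating cells fell (4.01 to 25.5 against 1.08 to 1.46 FPKM). Intercalated cell markers fell in 2 of 3 and neutrophil markers in 2 of 2. Distal tubule markers rose in 3 of 4 tested genes, with a median log2 fold change of 1.24 against 1.00 for proximal tubule markers. Podocyte markers rose in 2 of 2 and endothelium markers in 1 of 2. Thick ascending limb markers fell in 4 of 6 and rose in 1, and collecting duct markers fell in 1 of 2. The part of these lists in the results was not tested either. None of 9 adrenal markers was listed, which says nothing of adrenal RNA present equally in both groups. Ddx3y, a Y-linked gene, was read in all 6 libraries (842 to 1394 normalised reads).

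The genes of oxidation, glucuronidation and ester hydrolysis were mostly higher with MK-8617, and most glutathione S-transferase genes were lower. Of the 55 tested members 26 rose and 14 fell at an adjusted p below 0.05, and 15 did not pass the test. The share that rose was 47.3% of the members and 35.7% of all tested genes, and the share that fell was 25.5% of the members and 38.7% of all tested genes (72.7% and 74.3% either way). The median log2 fold change was 0.72 over the members and -0.31 over the 6961 tested genes. The members split by enzyme class: 25 rose and 4 fell among the 40 outside the GST and MGST group, with a median of 1.17, while 1 rose and 10 fell among the 15 GST and MGST genes, with a median of -0.66. IRI and MK-8617 libraries did not overlap for 48 of the 55 tested members (87.3%), a lower share than the 92.5% of all tested genes. By the authors' deposited table, 46 of the 57 members had an adjusted p below 0.05, against 77.1% of the whole table.

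**Figure D1:**
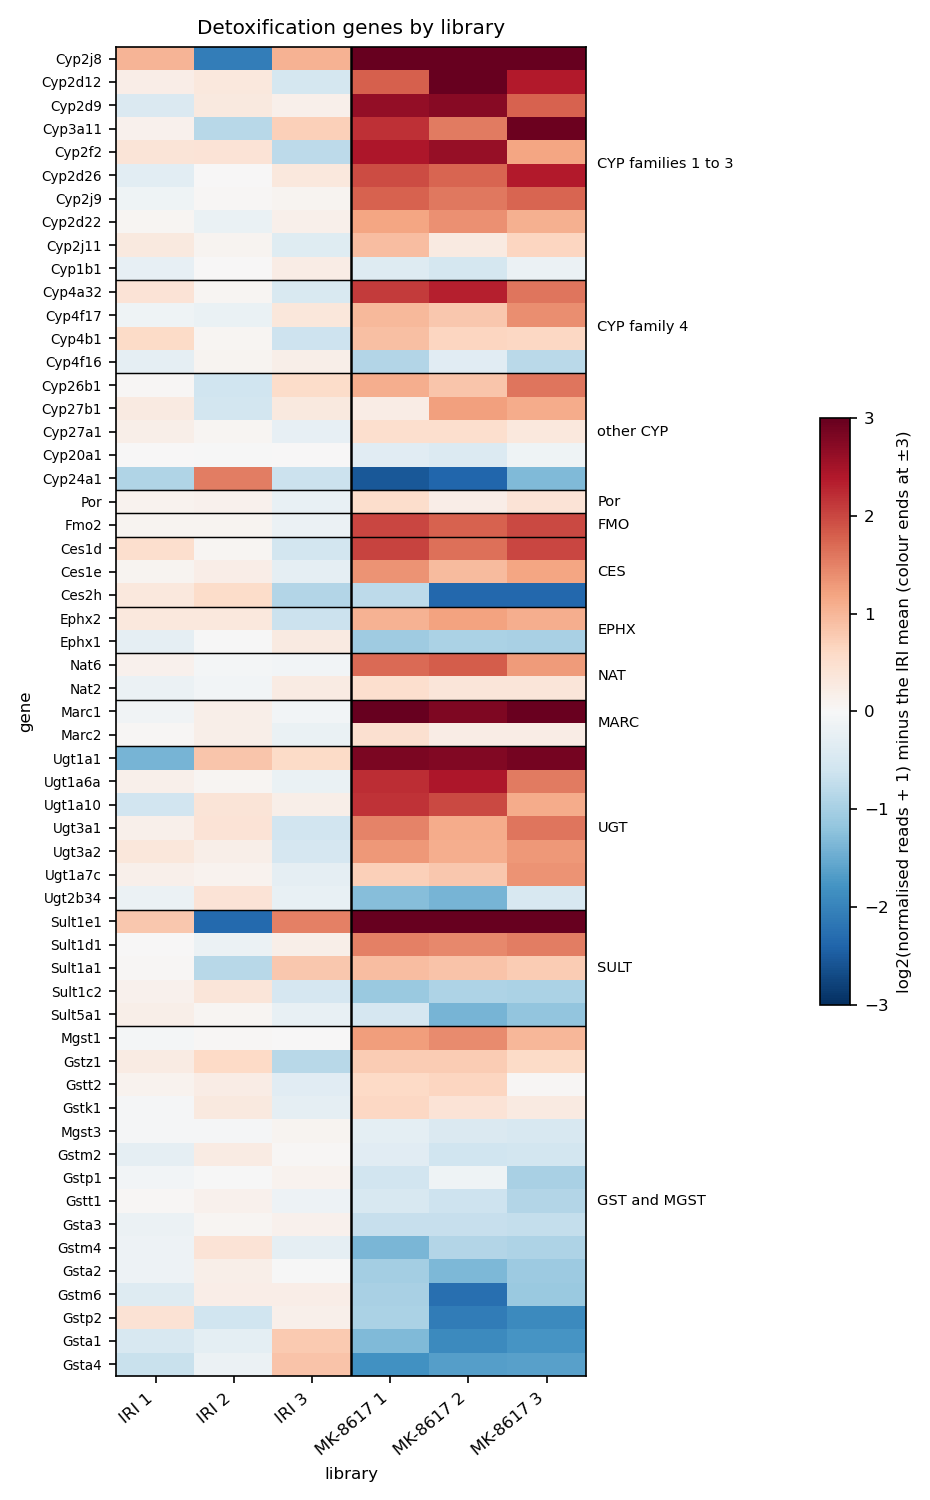
Level of each of the 57 members in each library, as log2(normalised reads + 1) minus the mean of the 3 IRI libraries (colour scale, ending at ±3), with genes in rows by enzyme class and libraries in columns. The upper classes are mostly red in the 3 MK-8617 columns and the GST rows mostly blue, and Cyp2j8, Sult1e1 and Cyp24a1 also differ among the IRI libraries.

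Cytochrome P450 genes of families 1 to 3, the main drug and steroid oxidising families, gave 7 rises and no fall among 9 tested genes of 10 listed. Cyp2j8, of a subfamily that oxidises polyunsaturated fatty acids, stood at 7.57, 0 and 7.67 normalised reads with IRI alone and at 126, 136 and 124 with MK-8617. It was close to absent in all IRI libraries and nearly equal in the 3 MK-8617 libraries. Its log2 fold change came to 4.95 ± 0.76 (SE, adjusted p = 0.00194), and to 3.91 when IRI replicate 2, the library at 0, was left out. From 367 against 16 reads the ratio was 25.7, with an exact 95% interval of 15.6 to 45.4 that covers counting error only. Cyp2j8 lies on GRCm38 chromosome 4 from 96444596 to 96507386 beside Cyp2j9 and Cyp2j11. Cyp2j9 rose by 1.70 ± 0.12, from 202 ± 14.7 to 657 ± 46.7 normalised reads (SD, n = 3). Cyp2j11, whose principal transcript is 88.9% identical to Cyp2j8 over 1510 bases, had 431, 368 and 270 against 662, 423 and 544 normalised reads. Its groups overlapped, and the change of 0.61 ± 0.21 was not past the threshold (adjusted p = 0.059). It passed without IRI replicate 1 (0.76) or MK-8617 replicate 2 (0.78). Tests of recovered reads by edgeR or DESeq2, another scaling and a block for replicate number also gave a call. In the authors' deposited table it passed too (adjusted p = 0.0237).

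The 2 neighbours, whose changes were both upward but of unlike size, are shown by their promoters, the 250 bases before and 50 after the start from RefSeq (GRCm38.p6). These are Cyp2j8 (chr4:96507348-96507647, minus strand) and Cyp2j11 (chr4:96348631-96348930, minus strand), in lower case because none of the 4 motifs described with the UGT genes occurs in them.
Cyp2j8: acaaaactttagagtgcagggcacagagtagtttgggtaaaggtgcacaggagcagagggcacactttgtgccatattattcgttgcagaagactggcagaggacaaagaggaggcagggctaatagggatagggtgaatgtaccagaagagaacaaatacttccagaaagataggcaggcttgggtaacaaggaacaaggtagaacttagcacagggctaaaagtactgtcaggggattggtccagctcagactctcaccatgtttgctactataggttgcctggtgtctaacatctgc
Cyp2j11: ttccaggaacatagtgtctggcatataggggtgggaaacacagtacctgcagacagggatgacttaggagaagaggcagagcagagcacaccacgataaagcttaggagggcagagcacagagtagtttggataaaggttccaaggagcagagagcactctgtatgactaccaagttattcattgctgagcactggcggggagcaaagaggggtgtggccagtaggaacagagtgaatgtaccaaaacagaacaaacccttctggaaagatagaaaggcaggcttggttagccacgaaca
In a global alignment 155 of 403 columns were identical (38.5%). Of the columns 206 were gaps, which count as not identical here. Shared stretches stand at different distances from the start in the 2 windows. The percentage is therefore not a measure of how alike the aligned bases are.

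The Cyp2d genes, relatives of the human drug-metabolising CYP2D6, rose together in their cluster on chromosome 15, with all 4 tested genes higher. Cyp2d9 had 131, 220 and 197 normalised reads with IRI alone and 1103, 1178 and 610 with MK-8617, where replicate 3 was the lowest but still above every IRI library. Its log2 fold change was 2.37 ± 0.27 (adjusted p = 0.000557). Cyp2d12 rose by 2.45 ± 0.37, Cyp2d26 by 2.03 ± 0.20 and Cyp2d22 by 1.21 ± 0.13. Cyp2d9 and Cyp2d12 are close copies (91.5% identity over 1642 bases). Cyp2d9 is closer still to Cyp2d11 (93.4% over 1590 bases), which is not listed. Reads may be split between such copies, while Cyp2d22 and Cyp2d26 are less alike to their nearest relatives (79.7% and 82.5%). The summed Cyp2d level was 17.5 to 22.2 FPKM with IRI alone and 69.7 to 74.5 FPKM with MK-8617.

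Cyp2f2, known as a bioactivating enzyme of airway cells, had 14.2, 14.6 and 5.75 normalised reads against 61.5, 70.4 and 25.5, a log2 fold change of 2.07 ± 0.50 from low counts (adjusted p = 0.0149). The call was lost without MK-8617 replicate 1 (adjusted p = 0.0677) or replicate 2 (0.0659). Cyp1b1, an aryl hydrocarbon receptor target that metabolises oestrogens, was at 1612 ± 259 and 1247 ± 158 normalised reads (SD, n = 3). Its libraries overlapped and the change of -0.36 ± 0.14 was not past the threshold (adjusted p = 0.0896). It passed, among other alternatives, without IRI replicate 1 (-0.48) and with a trend on transcript length removed (-0.55). Cyp3a11, the classical pregnane X receptor target of liver, had 1, 0 and 2 reads in the IRI libraries and 7, 4 and 12 with MK-8617. It was too low to be tested, and the ratio of summed reads was 8.59 with an exact 95% interval of 2.6 to 44.7 (counting error only).

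Family 4 enzymes hydroxylate fatty acids at their far end. Of 4 tested genes 2 rose and 1 fell. Cyp4a32 rose by 2.00 ± 0.34, from 18.1 ± 5.6 to 75 ± 18.4 normalised reads, but its transcript is 97.2% identical to that of Cyp4a10 over 1530 bases, so its reads cannot be told apart with certainty. Cyp4f17 rose by 1.07 ± 0.21 while its neighbour Cyp4f16 fell, with a log2 fold change of -0.68 ± 0.19 (adjusted p = 0.0261). Leaving out any of 4 libraries ended that call: IRI replicate 2 (-0.64) or 3 (-0.59), or MK-8617 replicate 1 (-0.58) or 3 (-0.61). The principal transcript of Cyp4f16 is 96.1% identical over 1607 bases to that of Cyp4f37, which is not listed, so reads may be split. Cyp4b1 was the most abundant member in both groups, at 402 ± 160 FPKM with IRI alone and 621 ± 69 FPKM with MK-8617. It had 22570, 15869 and 9904 normalised reads in the IRI libraries and 28459, 23654 and 23474 with MK-8617. Replicate 3 was again the lowest of the IRI libraries, the groups did not overlap, and the change of 0.72 ± 0.26 was not past the threshold (adjusted p = 0.0668), though it was without IRI replicate 1 (1.00).

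Among CYP genes of vitamin D, retinoid and sterol metabolism, 2 of 5 rose and none fell in the test. Cyp26b1, which clears retinoic acid, rose by 1.18 ± 0.29 (adjusted p = 0.0152), from 362 ± 140 to 799.7 ± 228 normalised reads, a call lost without MK-8617 replicate 3 (0.96, adjusted p = 0.0822). Cyp27a1, the mitochondrial sterol 27-hydroxylase, rose by 0.44 ± 0.14 with an adjusted p of 0.0429. That call held only without IRI replicate 1 among the 6 fits that leave out 1 library (adjusted p up to 0.14 in the others). Cyp24a1, which inactivates vitamin D, stood at 906, 4867 and 1081 normalised reads with IRI alone and at 286, 324 and 672 with MK-8617. IRI replicate 2 was far above the other two, and the change of -2.08 ± 0.66 missed the threshold (adjusted p = 0.0569). Without IRI replicate 2 it was smaller and passed (-1.32, adjusted p = 0.0313), and leaving out IRI replicate 1 (-2.53) or MK-8617 replicate 3 (-2.46), or testing recovered reads with edgeR (-2.35) or DESeq2 (-2.31), gave a call too. Cyp27b1, which makes active vitamin D, had 507, 287 and 521 against 497, 988 and 918 normalised reads. Its groups overlapped (0.86 ± 0.30, adjusted p = 0.0611), and it passed without MK-8617 replicate 1, its low library (1.17). Cyp20a1, an orphan member, was at 662 ± 4.53 and 541 ± 55.1 (-0.30, adjusted p = 0.077) and passed without MK-8617 replicate 3 (-0.38).

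Por, which passes electrons from NADPH to microsomal CYP enzymes, had 4464, 4541 and 3597 normalised reads with IRI alone and 6070, 4830 and 5570 with MK-8617. The groups did not overlap, but the change of 0.39 ± 0.13 was not past the threshold (adjusted p = 0.0562), and it passed in tests of recovered reads by edgeR (0.45) and DESeq2 (0.48) or under TMM (trimmed mean of M values) scaling (0.45). Fmo2, a flavin monooxygenase of nitrogen and sulfur compounds, rose from 1171 ± 124 to 4419 ± 362 normalised reads. Its log2 fold change of 1.92 ± 0.11 had the smallest adjusted p of all members (3.35e-05).

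**Figure D2:**
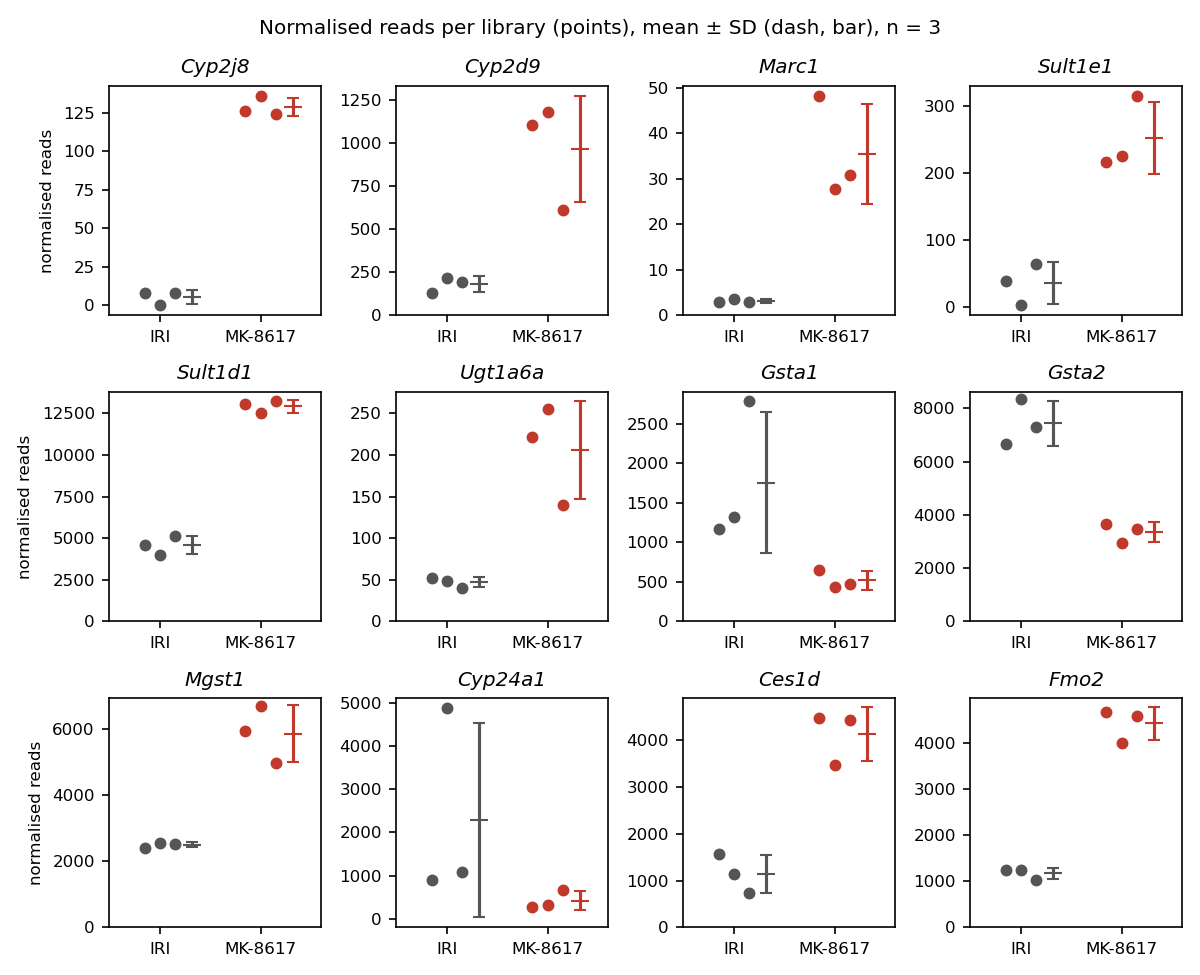
Normalised reads of 12 members in each library (points, grey for IRI and red for MK-8617), with the group mean and SD beside them (n = 3), each panel on its own linear axis. Groups do not overlap in any panel; Gsta1 and Cyp24a1 each have 1 IRI library far above the other two (2782 in replicate 3 and 4867 in replicate 2).

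Carboxylesterases split ester drugs and lipids. Ces1d, also a lipase of stored fat, had 1565, 1139 and 747 normalised reads with IRI alone and 4492, 3475 and 4445 with MK-8617, a log2 fold change of 1.90 ± 0.24 (adjusted p = 0.000774), and Ces1e rose by 1.16 ± 0.17. Ces2h, with 13, 16 and 5 reads against 5, 1 and 1, was too low to be tested. The epoxide hydrolases went opposite ways. Ephx2, the soluble enzyme that inactivates fatty acid epoxides, had 3450, 3419 and 1769 normalised reads with IRI alone and 5700, 6393 and 5902 with MK-8617 (1.12 ± 0.23, adjusted p = 0.00762). Ephx1, the microsomal enzyme of xenobiotic epoxides, had 975, 1165 and 1410 against 560, 605 and 600 (-0.99 ± 0.14, adjusted p = 0.00127). IRI replicate 3 was the lowest IRI library for the first and the highest for the second, and neither pair of groups overlapped.

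Marc1 encodes a mitochondrial amidoxime reductase. It had 3, 4 and 3 reads in the IRI libraries and 47, 26 and 29 with MK-8617. The ratio was 11.4 with an exact 95% interval of 5.97 to 24.6 (counting error only). The log2 fold change was 3.12 ± 0.42 (adjusted p = 0.00107). The fold change was 2.29 with an added 5 in place of 1. Its neighbour and paralogue Marc2 was far more abundant, at 23.3 ± 3.01 and 28.5 ± 3.03 FPKM, and its change of 0.31 ± 0.13 was not past the threshold (adjusted p = 0.104). The 2 genes lie next to each other on GRCm38 chromosome 1, from 184786767 to 184811313 and from 184813068 to 184846451. Nat2, an arylamine acetyltransferase, was at 282 ± 45.3 and 374 ± 19.5 normalised reads (0.42 ± 0.15, adjusted p = 0.066) and passed without IRI replicate 3 (0.54). Nat6 is matched by the symbol rule but encodes an acetyltransferase of actin and not of drugs. It rose from 328 ± 25.1 to 1008 ± 187 normalised reads (1.60 ± 0.15, adjusted p = 0.000223), and 60.9% of its exon bases also belong to exons of Hyal1 or Hyal3, so its reads are uncertain.

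UGT genes attach glucuronic acid or other sugars, and 6 of 7 rose and 1 fell. All 4 Ugt1a genes rose. Ugt1a6a, of phenol glucuronidation, had 52.1, 48.3 and 40.3 normalised reads with IRI alone and 221, 255 and 140 with MK-8617, a log2 fold change of 2.07 ± 0.26 (adjusted p = 0.000849). Ugt1a1, the bilirubin-conjugating enzyme, had 0, 4 and 3 reads in the IRI libraries and 17, 16 and 17 with MK-8617. The ratio was 8 with an exact 95% interval of 3.61 to 20.9 (counting error only). The log2 fold change of Ugt1a1, 2.82 ± 0.65 (adjusted p = 0.012), dropped to 2.13 when IRI replicate 1, the library at 0, was left out. Leaving out MK-8617 replicate 3 ended the call (2.80, adjusted p = 0.0508). Ugt1a10 rose by 1.76 ± 0.42 but was not called in the absence of MK-8617 replicate 1 (1.55) or 2 (1.65). Ugt1a7c had the highest level of the 4, at 15.4 ± 2.44 FPKM with IRI alone and 30.04 ± 7.66 FPKM with MK-8617, and rose by 0.96 ± 0.18. Its annotated end (88220002) lies beyond those of the others listed (88218997 to 88219004). Reads past those ends, from whichever Ugt1a transcript, can be counted for Ugt1a7c. Its level may therefore include transcripts of other Ugt1a genes, which was not tested. The Ugt1a genes share their later exons: 50.3% to 58.9% of the exon bases of each are also exon of another gene in the annotation's Ugt1a cluster, so the 4 values are not fully separate. With Gm20528 on the opposite strand counted too, the overlap was 82.7% for Ugt1a1 and 64.3% for Ugt1a10. Ugt1a6a is also 98.9% identical to Ugt1a6b over 2297 bases, and Ugt1a10 96.4% identical to Ugt1a9 over 2196 bases. Neither relative is listed.

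Ugt3a1 and Ugt3a2, adjacent on chromosome 15 and linked to N-acetylglucosamine and glucose transfer, rose by 1.41 ± 0.24 and 1.23 ± 0.20. Their principal transcripts are 91.6% identical over 2242 bases, so reads may be split between them. Ugt3a2 had 5311, 4754 and 2956 normalised reads with IRI alone and 10447, 8895 and 10338 with MK-8617, and IRI replicate 3 was the lowest library for both genes. The fall was in Ugt2b34, of the steroid-conjugating family 2, with 241, 364 and 235 against 113, 105 and 198 normalised reads (-1.04 ± 0.28, adjusted p = 0.0216). Leaving out IRI replicate 2 (-0.84), or MK-8617 replicate 1 (-0.93) or 2 (-0.87), ended that call.

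Promoter windows in RefSeq (GRCm38.p6, 250 bases before to 50 after the start) were matched for 44 members, in 50 windows. No window was matched for Ces1d, Cyp24a1, Cyp2d12, Cyp2d22, Cyp4f17, Ephx2, Gsta4, Gstt2, Marc1, Marc2, Nat2, Nat6 or Ugt3a2. On both strands 4 motifs were searched: the hypoxia response element core ACGTG, the antioxidant response element core TGACNNNGC, the letters GTTAAT of sites of HNF1, a transcription factor of liver and proximal tubule, and a direct repeat of the nuclear receptor letters AGGTCA with 1 base between. The letters GTTAAT stood in 9 of the 50 member windows (18%), against 7.1% of all 32851 RefSeq windows. These 9 belong to Ugt1a1, Ugt1a6a, Ugt1a10, Ugt3a1, Cyp2d26, Cyp4a32 and Sult1d1, which rose, to Gsta3, which fell, and to Sult1a1, which was not past the threshold. ACGTG stood in 4 windows (8%, against 19.6% of all windows), those of Fmo2, Gstt1, Gstp1 and Gstp2. TGACNNNGC stood in 2 (4%, against 12.4%), those of Gsta3 and Mgst1, and the repeat in none (against 0.0396%). A match is a run of letters and not a binding site, no p is given, and windows of related genes can share sequence. The windows of 3 Ugt1a genes and Sult1d1 are shown because they hold GTTAAT or its reverse complement ATTAAC (in capitals) upstream of the start, in genes that rose: Ugt1a1 (chr1:88211709-88212008, plus strand), Ugt1a6a (chr1:88134559-88134858, plus strand), Ugt1a10 (chr1:88055161-88055460, plus strand) and Sult1d1 (chr5:87568957-87569256, minus strand).
Ugt1a1: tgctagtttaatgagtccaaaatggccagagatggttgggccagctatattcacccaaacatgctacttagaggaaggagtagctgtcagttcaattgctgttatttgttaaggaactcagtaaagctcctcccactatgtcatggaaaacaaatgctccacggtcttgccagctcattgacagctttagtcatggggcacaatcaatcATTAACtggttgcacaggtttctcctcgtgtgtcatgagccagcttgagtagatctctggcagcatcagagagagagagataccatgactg
Ugt1a6a: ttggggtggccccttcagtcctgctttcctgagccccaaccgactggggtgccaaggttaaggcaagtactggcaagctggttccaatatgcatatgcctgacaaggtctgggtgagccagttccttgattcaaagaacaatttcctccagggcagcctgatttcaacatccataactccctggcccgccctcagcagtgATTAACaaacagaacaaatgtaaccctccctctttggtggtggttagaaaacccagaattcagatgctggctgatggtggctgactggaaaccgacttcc
Ugt1a10: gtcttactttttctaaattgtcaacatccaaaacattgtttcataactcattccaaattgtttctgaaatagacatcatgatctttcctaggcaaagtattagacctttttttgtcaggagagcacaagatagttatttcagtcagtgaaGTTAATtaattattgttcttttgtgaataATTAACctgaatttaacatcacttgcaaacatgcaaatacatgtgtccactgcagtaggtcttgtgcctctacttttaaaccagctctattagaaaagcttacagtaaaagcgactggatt
Sult1d1: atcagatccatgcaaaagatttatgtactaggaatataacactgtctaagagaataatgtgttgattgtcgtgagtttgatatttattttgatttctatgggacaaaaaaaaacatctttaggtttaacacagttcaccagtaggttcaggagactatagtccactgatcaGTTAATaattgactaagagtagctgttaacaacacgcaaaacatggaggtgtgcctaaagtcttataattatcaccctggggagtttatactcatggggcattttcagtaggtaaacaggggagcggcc

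Sulfotransferases gave 2 rises and 1 fall among 5 tested genes. Sult1d1, which acts on dopamine and other amines and is a main sulfotransferase of mouse kidney, had 4602, 4020 and 5154 normalised reads with IRI alone and 13062, 12503 and 13238 with MK-8617. The 3 MK-8617 libraries lay close together and far above the IRI libraries, with a log2 fold change of 1.501 ± 0.12 (adjusted p = 9.16e-05). It was 0.67 (adjusted p = 0.00894) with trends on transcript length and GC content removed. Sult1e1, the oestrogen sulfotransferase, lies beside it on chromosome 5 (87575969 to 87591594). It had 39.8, 3.64 and 65.2 normalised reads with IRI alone and 217, 226 and 315 with MK-8617, so that IRI replicate 2 was far below the other two. Its log2 fold change came to 3.43 ± 0.82 (adjusted p = 0.0141). It moved to 2.27 when IRI replicate 2 was left out (adjusted p = 0.000812) and to 4.18 when IRI replicate 3 was, and leaving out MK-8617 replicate 3 ended the call (3.26, adjusted p = 0.0791). Its promoter (chr5:87591562-87591861, minus strand) is shown beside that of its neighbour and holds none of the 4 motifs.
Sult1e1: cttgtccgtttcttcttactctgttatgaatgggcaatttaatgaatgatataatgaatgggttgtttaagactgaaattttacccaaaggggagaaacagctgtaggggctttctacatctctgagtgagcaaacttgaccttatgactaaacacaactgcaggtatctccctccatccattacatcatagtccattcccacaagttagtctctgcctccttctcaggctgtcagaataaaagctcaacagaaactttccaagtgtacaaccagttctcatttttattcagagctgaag

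Sult1c2, a sulfotransferase of phenols, fell from 465 ± 134 to 226 ± 15.9 normalised reads (-0.998 ± 0.21, adjusted p = 0.00846). Sult1a1, the phenol sulfotransferase, had 251, 136 and 428 against 467, 444 and 413 normalised reads. Its groups overlapped because of IRI replicate 3, and the change of 0.85 ± 0.34 was not past the threshold (adjusted p = 0.0989), though it was without that library (1.25, adjusted p = 0.00362). Sult5a1 was low in both groups, at 32.8 ± 4.62 and 16 ± 5.73 normalised reads (adjusted p = 0.0646).

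Glutathione S-transferases join glutathione to reactive molecules, and the alpha, mu, pi and theta classes were lower with MK-8617 in 9 of 11 tested genes and higher in none. All 4 alpha genes fell, and so did the 3 mu genes, of which Gstm2 barely passed the threshold. Gsta2 was the second most abundant member with IRI alone, at 356 ± 40.4 FPKM, and the sixth with MK-8617, at 159 ± 18.3 FPKM. It had 6656, 8349 and 7309 against 3664, 2931 and 3473 normalised reads, a log2 fold change of -1.15 ± 0.13 (adjusted p = 0.000473). Gsta1 had 1168, 1317 and 2782 against 650, 433 and 472, and Gsta4, which clears the lipid peroxidation product 4-hydroxynonenal, had 889, 1256 and 2564 against 403, 455 and 461. For both, IRI replicate 3 was well above the other IRI libraries, and no IRI library reached down to the MK-8617 range. Their changes of -1.67 ± 0.30 and -1.69 ± 0.32 became -1.28 and -1.27 without IRI replicate 3 and stayed past the threshold. Gsta3 fell from 1404 ± 147 to 859 ± 10.8 normalised reads (-0.70 ± 0.10).

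Gsta1 and Gsta2 have principal transcripts that are 97.2% identical over 870 bases, so reads can be shared or dropped between them. They lie on GRCm38 chromosome 9, from 78230656 to 78242684 on the plus strand and from 78331018 to 78355788 on the minus strand. Their promoters (chr9:78230419-78230718, plus strand, and chr9:78347096-78347395, minus strand) are shown because the 2 genes fell together. The RefSeq start used for Gsta2 lies inside the gene span given above and not at its end (78355788), so it is not the outermost annotated start. In a global alignment of the 2 windows 232 of 311 columns were identical (74.6%), and 22 were gaps, again counted as not identical. Neither window holds any of the 4 motifs.
Gsta1: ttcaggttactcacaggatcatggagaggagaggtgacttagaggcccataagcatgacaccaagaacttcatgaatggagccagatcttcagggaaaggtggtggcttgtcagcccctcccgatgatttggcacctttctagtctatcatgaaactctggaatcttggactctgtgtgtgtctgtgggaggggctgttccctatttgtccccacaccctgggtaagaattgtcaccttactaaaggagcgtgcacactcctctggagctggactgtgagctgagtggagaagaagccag
Gsta2: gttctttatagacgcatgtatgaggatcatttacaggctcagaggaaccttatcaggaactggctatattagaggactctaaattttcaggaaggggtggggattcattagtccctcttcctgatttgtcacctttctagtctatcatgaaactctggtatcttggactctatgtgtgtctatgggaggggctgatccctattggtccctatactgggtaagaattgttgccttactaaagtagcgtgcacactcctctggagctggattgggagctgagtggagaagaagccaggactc

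Of the mu class, Gstm4 fell from 205 ± 54.9 to 96.6 ± 17.2 normalised reads (-1.06 ± 0.24, adjusted p = 0.011). Gstm6 (-1.45 ± 0.42, adjusted p = 0.0314) lost its call in the absence of replicate 2 or 3 of either group (adjusted p of 0.0582 to 0.0785). Gstm2 was at the edge (-0.49 ± 0.16, adjusted p = 0.0497) and kept its call without IRI replicate 1 but not without any other single library (adjusted p of 0.0724 to 0.16). Its call was lost in 13 of 17 alternatives in all, edgeR (-0.44), DESeq2 (-0.41) and TMM scaling (-0.43) among them. Of the pi class, Gstp1 was the third most abundant member in both groups, at 307 ± 18.6 and 211 ± 60.2 FPKM. It had 3878, 4118 and 4413 against 2772, 3756 and 2101 normalised reads, and MK-8617 replicate 2 lay close to the IRI range. Its change of -0.56 ± 0.19 was not past the threshold (adjusted p = 0.0527) and was without MK-8617 replicate 2 (-0.77, adjusted p = 0.0129). Gstp2, a low copy 94.2% identical to it over 798 bases, fell (-1.65 ± 0.46, adjusted p = 0.0263), a call that ended when IRI replicate 1 or 3 or MK-8617 replicate 2 or 3 was left out (adjusted p of 0.0553 to 0.101). Of the theta class, Gstt1 fell from 1248 ± 120 to 792 ± 114 normalised reads (-0.66 ± 0.13, adjusted p = 0.00612), while its neighbour Gstt2 had 2402, 2583 and 1770 against 3364, 3468 and 2293 with overlapping groups (0.43 ± 0.19, adjusted p = 0.142, or 0.62 and past the threshold without MK-8617 replicate 3).

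The microsomal transferases differed from each other. Mgst1, which also reduces lipid peroxides, had 2401, 2557 and 2534 normalised reads with IRI alone and 5925, 6675 and 4965 with MK-8617, and it was the one GST or MGST gene that rose (1.22 ± 0.12, adjusted p = 0.000302). Mgst3 fell from 2086 ± 90.9 to 1570 ± 110 (-0.41 ± 0.10, adjusted p = 0.0127). Gstz1, of tyrosine breakdown, had 1669, 2150 and 792 against 2388, 2413 and 2099 normalised reads, with IRI replicate 3 far below the other two. It was not past the threshold (0.70 ± 0.30, adjusted p = 0.132) but was without IRI replicate 2 (1.00), and Gstk1, of mitochondria and peroxisomes, was not either (0.43 ± 0.17, adjusted p = 0.0943). Gstk1 passed without that library (0.57) and with DESeq2 on recovered reads (0.51).

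GST and MGST transcripts are short, and transcript length moved with the result. Their principal transcripts had a median length of 1064 nucleotides, against 2148 for the other members and 2579 for all genes of the table. With a smooth trend on transcript length removed from each library, the median of all tested genes moved from -0.31 to -0.09, 5 of the 15 GST and MGST genes fell and 2 rose, and their median was -0.28. The 5 that still fell were Gsta1 (-1.23), Gsta2 (-0.70), Gsta3 (-0.49), Gsta4 (-1.29) and Gstm4 (-0.96). The calls of Gstt1 (-0.28), Mgst3 (-0.05), Gstm2 (-0.12), Gstm6 (-1.12) and Gstp2 (-1.19) were lost, and Gstk1 rose (0.85). Among the other members 26 rose and 8 fell with the trend removed, and their median was 1.12. The part of transcript length in the falls was not tested further.

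**Figure D3:**
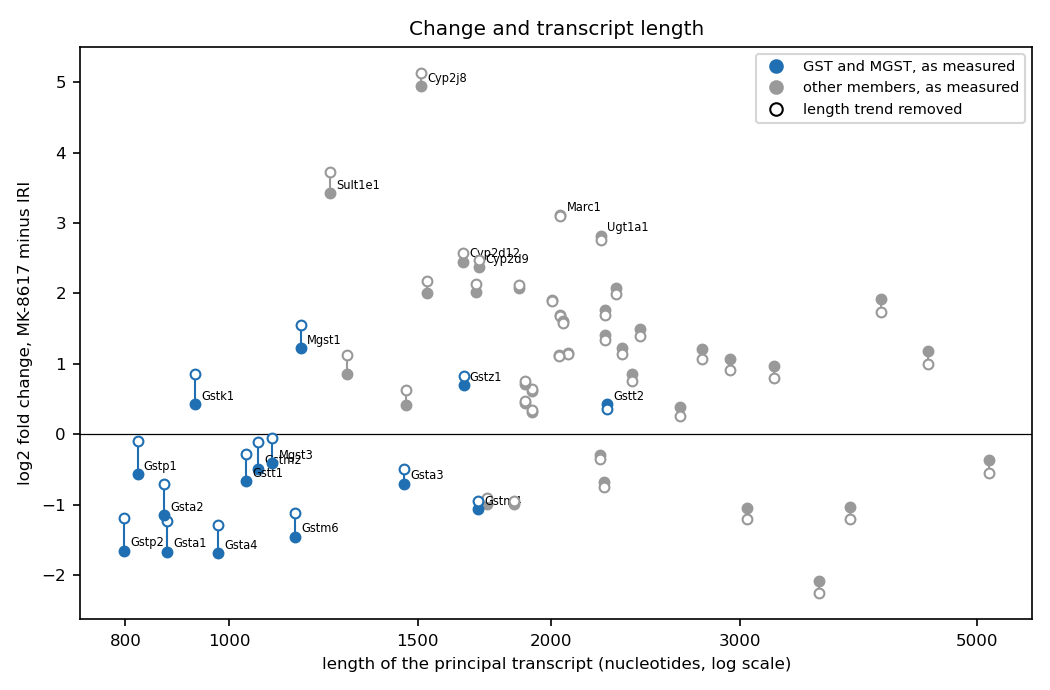
Log2 fold change of the 55 tested members (vertical axis, MK-8617 minus IRI) against the length of the principal transcript (horizontal log axis, nucleotides), as measured (filled) and with a length trend removed (open), joined by lines. GST and MGST genes (blue) sit mostly at the short end and move up when the trend is removed, and the alpha genes stay below 0.

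In levels per length, the order of the members changed at the top. Cyp4b1 led in both groups, followed with IRI alone by Gsta2, Gstp1, Mgst3 (107 ± 4.27 FPKM), Sult1d1 (105 ± 12.7 FPKM) and Gsta1 (103 ± 52 FPKM), of which the last 3 do not differ beyond their spread. With MK-8617 the order was Cyp4b1, Sult1d1 (292 ± 9.84 FPKM), Gstp1, Ugt3a2 (177 ± 16.1 FPKM), Mgst1 (162 ± 23 FPKM) and Gsta2, and the last 3 again lay within their spread. The sums that follow cover listed genes only, which had p below 0.05 between these groups, so they are not class totals. Summed over the alpha class the level was 444 to 644 FPKM with IRI alone and 194 to 239 FPKM with MK-8617. The SULT sum was 115 to 146 against 315 to 337 FPKM, the UGT sum 74.5 to 126 against 206 to 251 FPKM and the CES sum 22.8 to 44.1 against 92.8 to 121 FPKM. CYP family 4, mostly Cyp4b1, was at 261 to 577 against 599 to 718 FPKM. All members together held 2057 to 2254 FPKM with IRI alone and 2523 to 2744 FPKM with MK-8617. The GST and MGST sum went the other way, with 1038 to 1261 against 699 to 861 FPKM. Among the 26 members that rose, IRI replicates 1, 2 and 3 had the lowest IRI level in 7, 6 and 13 and the highest in 8, 10 and 8. Among the 14 that fell, they had the highest IRI level in 1, 7 and 6. Without IRI replicate 3, the library lowest in proximal tubule markers, 27 members rose and 11 fell. The member median was then 0.48, against 0.72 with all libraries. The proximal tubule marker sums of IRI replicates 1 and 2 were 1152 and 1240 FPKM, still below those with MK-8617 (2358 to 2432 FPKM).

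**Figure D4:**
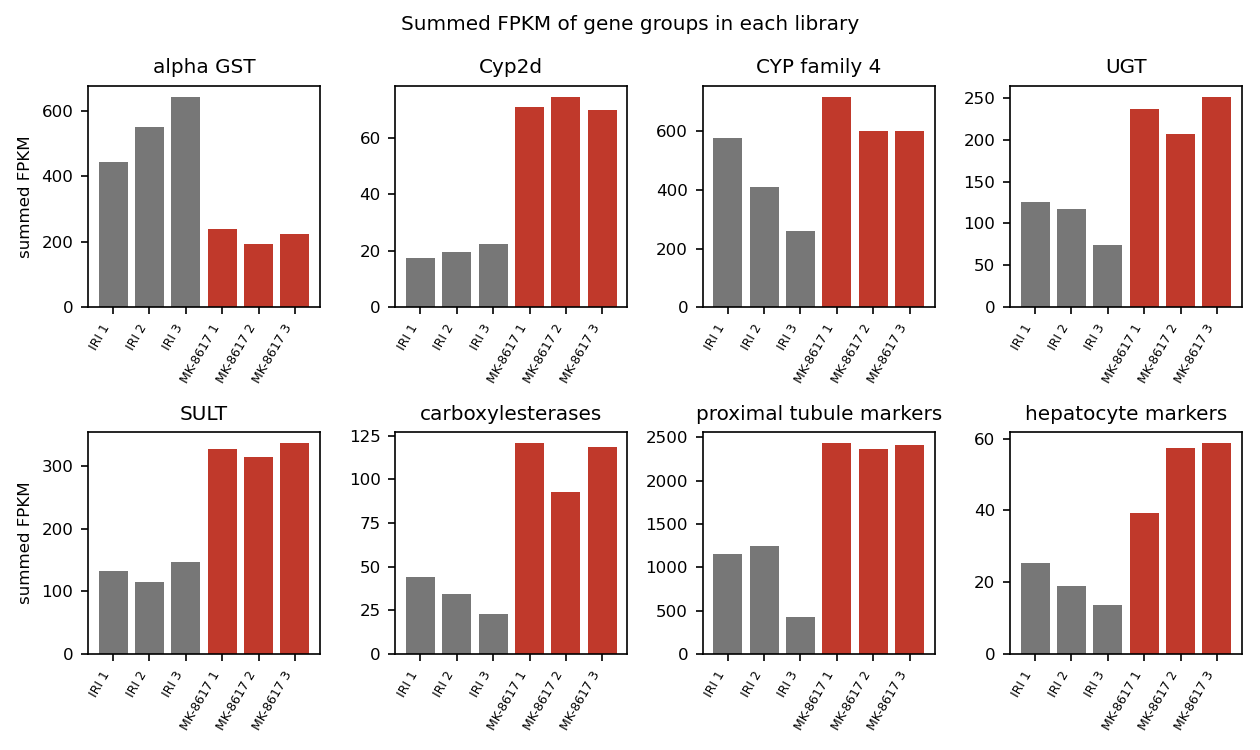
Summed FPKM of listed genes in each library for 6 groups of members and for the proximal tubule and hepatocyte marker lists (bars from 0, grey for IRI and red for MK-8617). The alpha GST sum is lower and the other 7 sums are higher in every MK-8617 library, and IRI replicate 3 is lowest for CYP family 4, UGT, carboxylesterases and both marker lists.

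Genes that supply these enzymes went both ways. Of 33 genes of cofactor and electron supply 22 were tested, with 7 higher, 8 lower and a median of -0.03. Over all tested genes 35.7% were higher and 38.7% lower, with a median of -0.31. The counts of the list lie near those shares. Besides Slc26a1, Alas1, Ugp2 and Cyb5r1, which had the smallest p-values, the genes named here were picked after their values were seen. The UDP-glucuronic acid route rose in the 3 listed genes Ugp2 (0.79 ± 0.12), Ugdh (0.53 ± 0.11) and Slc35d1, a transporter of UDP-sugars (0.76 ± 0.12). Alas1, the first enzyme of haem synthesis, rose from 3372 ± 494 to 6746 ± 316 normalised reads (1.01 ± 0.13, adjusted p = 0.000778). For the sulfate route, Slc26a1, a basolateral sulfate transporter of the proximal tubule, fell from 1460 ± 156 to 260.1 ± 91.3 normalised reads (-2.53 ± 0.21), and Papss1, which makes the sulfate donor PAPS, fell as well (-0.44 ± 0.09). The PAPS transporters of the Golgi went opposite ways, Slc35b3 up (0.72 ± 0.12, adjusted p = 0.00235) and Slc35b2 down (-0.44 ± 0.11, adjusted p = 0.0148). For glutathione, Gclc of the first step rose (0.80 ± 0.18) while Gss of the second fell (-0.76 ± 0.12). Cyb5r1, a cytochrome b5 reductase gene, fell (-0.82 ± 0.13).

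Targets of NRF2, the factor that induces many GST genes under oxidative stress, were lower in 11 of 20 tested genes and higher in 3, outside the members themselves. Of all tested genes 38.7% fell and 35.7% rose. The median was -0.50 over the list and -0.31 over all tested genes. The 3 that rose were Gclc, which is in the supply list too, Fth1 (0.48 ± 0.10) and Hmox1. The list sum was higher with MK-8617 (8481 to 8593 FPKM with IRI alone against 10422 to 11692 FPKM). Fth1 held most of it (6638 against 9148 FPKM). Hmox1, also a target of hypoxia-inducible factor, rose (0.94 ± 0.13), and Prdx1 (-0.80 ± 0.12), Blvrb (-0.93 ± 0.14) and Htatip2 (-0.89 ± 0.15) fell. Nqo1, a common reporter of this pathway that was picked after its values were seen, fell from 2720 ± 376 to 2024 ± 255 normalised reads (-0.42 ± 0.13, adjusted p = 0.0418). The gene of NRF2 itself, Nfe2l2, had 2512, 2659 and 2652 normalised reads with IRI alone and 4433, 4680 and 4562 with MK-8617, a rise of 0.81 ± 0.09 (adjusted p = 0.000502). Among receptors and liver-type factors 7 of 14 tested genes of 40 rose and 2 fell, with a median of 0.47. Beside Nfe2l2 the smallest p-values were those of Esrra, an oestrogen-related receptor of energy metabolism, which fell (-1.16 ± 0.11), Ppara, which induces fatty acid oxidation genes and rose (1.19 ± 0.18), and Maff, a small partner protein of NRF2, which rose (1.31 ± 0.19). Nr1i3, the constitutive androstane receptor gene, was too low to be tested, and the receptor genes Nr1i2 and Hnf4a were not analysed here.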

How the data were processed

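RNA was sequenced from 6 mouse kidney samples, grouped by their titles into IRI (3) and IRI with MK-8617 (3). Replicates 2 and 3 carry MK8618 and MK8619 as treatment entries, against their titles. Per the labels' protocols, RNA was taken with TRIzol and made into libraries using a NEBNext Ultra kit. Per the submitters' processing notes, reads were handled with fastp and CASAVA 1.8, and DESeq2 1.20.0, HISAT2 2.0.5 and featureCounts 1.5.0-p3 are also named. The named build is human GRCh38, while the gene identifiers are mouse. The authors deposited a signal per gene and library, here called normalised reads, which is a count over that library's size factor. Multiplying back gave whole reads, within 0.001, for 100% of values, and these equalled the deposited raw count of IRI replicate 3 in 7340 of 7340 genes. FPKM was computed by the authors too. Their deposited log2 values are fold changes, and the largest deposited p-value is 0.0499. Another 13 columns are empty.

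The test was limma 3.58.1 (trend, robust) on log2(value + 1) over the 6961 genes that passed filterByExpr of edgeR 4.0.16, with Benjamini-Hochberg adjustment over 18811 genes, the number behind the deposited adjusted p-values, of which 11560 lie outside the table. The members and lists were chosen with earlier results of these data known. All members may be named. Full statistics were planned for up to 4 members per family with the largest change and for up to 4 genes per list with the smallest p. Gene positions and lengths are from GENCODE M21 (GRCm38). Transcripts were compared with blastn 2.17.0. Alternatives were edgeR, DESeq2 1.42.0 (R 4.3.3), other pseudocounts, filters, scalings and units, trends on length and GC content removed, a replicate block, and each library left out. The tests were tried on simulated data. The number of reads limits low genes: 3 reads are worth 2.73 to 3.2 normalised reads.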

Additional observations from a re-analysis of the deposited data

How the results depend on the processing

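Of the 40 member calls 27 kept their call and direction under all 17 alternatives that tested them, and 13 were lost in at least 1, of which 11 were lost when 1 library was left out. None of the 40 called members changed sign in these alternatives. Gstp1, called as lower without MK-8617 replicate 2 and with no filter, had a log2 fold change of 0.0011 with length and GC trends removed. Each of the 15 members without a call passed the threshold in at least 1 alternative. All members had p below 0.05 in the authors' comparison of the same libraries. Calls kept or gained in refits of these data are therefore partly built in and are not independent evidence. Leaving out 1 library at a time gave 23 to 28 members higher and 11 to 15 lower. For GST and MGST genes it gave 1 to 3 higher and 7 to 9 lower, and for the other members 21 to 27 higher and 3 to 6 lower. With a length trend removed, and likewise with length and GC trends removed, 2 GST and MGST genes were higher and 5 lower, and 8 other members were lower. With DESeq2 on the recovered reads 4 GST and MGST genes, 11 supply genes, 7 NRF2 targets and 11 receptor and factor genes were higher. With a minimum of 5 CPM 1 receptor gene was lower. The causes of these differences were not tested, apart from the smaller number of genes under the 5 CPM minimum. Whether the replicate numbers pair the samples is not known. Correlations of deviations from the group mean were 0.0206, 0.116 and 0.115 for same-numbered samples. For unlike-numbered samples they ran from -0.129 to 0.0198, so these values do not exclude pairing. With the replicate block 30 members were higher and 14 lower, and 3 GST and MGST genes were higher. For the promoters, GTTAAT fell to 5 windows (10%, against 3.23% of all RefSeq windows) in the 150 bases nearest the gene and to 4 (8%, against 0.399%) with a longer form. ACGTG stayed at 4 in those bases (8%, against 11.5%). TGACNNNGC fell to 1 (2%, against 7.23%) in those bases and to 0 (against 4.3%) with a G before it, and ACGTG to 0 (against 5.91%) with a C after it. Depth limits Cyp2j8, Marc1, Ugt1a1 and Cyp3a11, which had 16 or fewer reads in all IRI libraries together. Cyp2j8, Marc1 and Ugt1a1 passed the filter on low reads only through the MK-8617 libraries. Their ratios and fold changes carry that selection.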
